A study of Mus musculus with 5 samples.

Results

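The genes described here are 8 CXC chemokines, small secreted proteins that steer migrating cells: Cxcl1, Cxcl5, Cxcl9, Cxcl10, Cxcl12, Cxcl13, Cxcl14 and Cxcl16. They were chosen by name, and all 8 were found among the 27998 genes that the 5 count tables have in common. The tables hold single-cell RNA-seq of GFP+ cells sorted from the spinal cord of Col1a1GFP mice on a C57/BL6 background, in which a fluorescent reporter marks cells that use the Col1a1 gene of type I collagen. The Healthy group (3 libraries) came from healthy mice, and the EAE group (2 libraries) from mice with experimental autoimmune encephalomyelitis, an immune attack on myelin used as a model of multiple sclerosis. Every library carries the reporter and passed the sort, so a level describes sorted cells and not the whole cord. The labels give no age, no stage or way of induction of EAE, and no statement on how many animals a library pools. Nor do they say that libraries stem from separate animals, and a p-value therefore reflects only how far these libraries scatter, which may be technical.

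CXC chemokines bind receptors on leukocytes and on some tissue cells, and each receptor serves a few ligands. Cxcl1 and Cxcl5 act on Cxcr2 of neutrophils, Cxcl9 and Cxcl10 on Cxcr3 of activated T cells and natural killer cells, Cxcl12 on Cxcr4, Cxcl13 on Cxcr5 of B cells, and Cxcl16 on Cxcr6. Cxcl9 and Cxcl10 are classic targets of interferons, Cxcl1 and Cxcl5 of interleukin-1, tumour necrosis factor and interleukin-17, while Cxcl12 and Cxcl13 are known as organisers of bone marrow and lymphoid tissue. In the cord, the fibroblasts of the meninges and vessels and the mural cells of vessels lie on the path by which leukocytes enter.

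Barcodes were shared between libraries of the first batch (Healthy 1, Healthy 2 and EAE 1), and each was counted once, where its UMI total was highest. This left out 1549 barcodes of Healthy 1, 684 of Healthy 2 and 2 of EAE 1, and after filters on cells 4678 of 7205 barcodes remained. The remaining libraries held 374 to 1913 cells and 1053418 to 10093523 UMIs (unique molecular identifiers, 1 per captured RNA molecule). The median per cell was 1213 UMIs in Healthy 1 against 3195 to 5028 in the others. Most kept cells of Healthy 2 and EAE 1 still carried a shared barcode, placed in a library by its UMI total alone. With all shared barcodes left out, 118 of 429 cells of Healthy 2 and 676 of 1913 of EAE 1 remained. A cell was put in a class when it held enough UMIs of markers of that class. Fibroblast-gated cells numbered 640 in Healthy 1, 378 in Healthy 2, 351 in Healthy 3, 1672 in EAE 1 and 1163 in EAE 2, and mural-gated cells 23, 26, 18, 34 and 26 in the same order. All 7 fibroblast markers and all 8 mural markers were found in their own class in each library. The gate used these same markers, so this is no check of what the cells are. Leukocyte-gated cells numbered 122 and 24 in EAE 1 and EAE 2 but only 2 in all Healthy libraries together, so leukocytes of healthy cords are not described. A further 46 melanocyte-gated cells lay in EAE 1 alone. Levels are UMIs per 1000000 UMIs of the class (CPM), and a class at 0 UMIs is given the limit that 3 counts would make.

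By the mean level over the libraries of a state, 7 of the 8 chemokines were highest in fibroblast-gated cells in Healthy and 6 of 8 in EAE. Cxcl1 was highest in mural-gated cells in both states, and Cxcl10 in EAE. For Cxcl10 in Healthy the order depends on the measure: the mean over libraries was 40.7 CPM in fibroblast-gated and 31.8 CPM in mural-gated cells, but with libraries pooled it was 38.3 and 39.0 CPM, the mural value from 8 UMIs. The rank of Cxcl5 in Healthy is not settled. Pooled, it stood at 1.63 CPM in fibroblast-gated cells, against 0 UMIs in mural-gated cells (a limit of 14.6 CPM). That of Cxcl13 in Healthy rests on 1 barcode of Healthy 1, without which Cxcl13 was highest in mural-gated cells, there from 1 UMI. None of the 8 was highest in leukocyte-gated cells. In absolute terms fibroblast-gated cells, 87.4% and 93.9% of the cells of EAE 1 and EAE 2, held nearly all UMIs of each gene there: from 90.5% of those of Cxcl10 in EAE 1 to 100% of those of Cxcl14 in the same library. The counts say nothing of secreted protein.

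**Figure D1:**
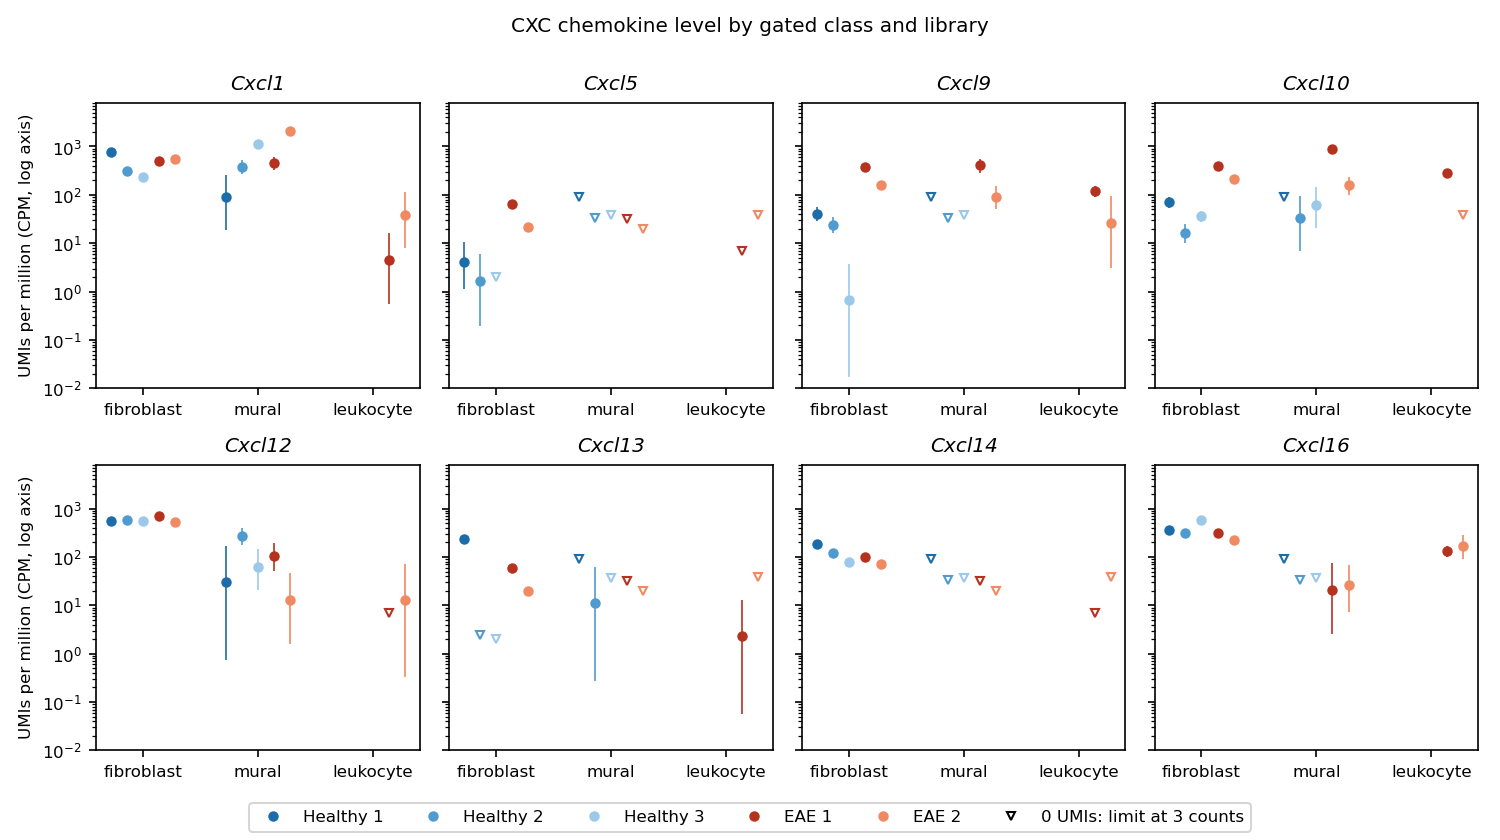
Level of each CXC chemokine (CPM, log axis) in fibroblast-, mural- and leukocyte-gated cells, 1 point per library with at least 10 cells of that class. Bars are exact Poisson 95% intervals (counting error only), and open triangles mark the limit that 3 counts would make where the class held 0 UMIs. Cxcl5, Cxcl9 and Cxcl10 lie higher in both EAE libraries than in all Healthy libraries in fibroblast-gated cells, and Cxcl14 is at 0 UMIs in every mural and leukocyte sum.

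The first comparison asked which chemokines differed between EAE and Healthy fibroblast-gated cells. Cxcl5, Cxcl9 and Cxcl10 rose and none of the 8 fell (edgeR quasi-likelihood test on UMI sums per library, adjusted p under 0.05 over 9921 genes). Cxcl5 passed the filter on low counts only through the EAE libraries. It could only be called higher, so its call is no support. For all genes tested, 10.1% rose and 10.6% fell, or 20.8% in all, the share against which a count of 3 in 8 is to be read. The median log2 fold change was 0.22 over the 8 chemokines and 0.00 over all genes tested. On the scaled levels of that test, the lower EAE library was above the highest Healthy library for those 3 chemokines, a pattern that 23.0% of all genes showed. The reverse held for Cxcl16 alone, and for 22.4% of all genes.

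Of the neutrophil attractants, Cxcl1 stood at 770, 314 and 232 CPM in Healthy 1 to 3 and at 512 and 554 CPM in EAE 1 and EAE 2. The groups overlapped, because Healthy 1 was the highest of all 5 libraries, and the log2 fold change of 0.41 ± 0.55 (SE) missed the threshold (edgeR adjusted p = 0.673). Without Healthy 1 it was 0.90 ± 0.17 with an adjusted p of 5.93e-05, so that library decides the call. Within batches the direction was not shared: EAE 1 against Healthy 1 and 2 gave -0.16 ± 0.38, and EAE 2 against Healthy 3 gave 1.19 ± 0.43. In both of these fits, here and for the genes below, the spread comes from Healthy 1 and Healthy 2 alone.

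Cxcl5 was close to absent in Healthy fibroblast-gated cells, at 4, 2 and 0 UMIs in Healthy 1 to 3 (4.15, 1.62 and 0 CPM, with a limit of 2.02 CPM for the 0). It reached 555 UMIs in EAE 1 and 150 in EAE 2 (63.8 and 21.6 CPM). The libraries did not overlap, and the log2 fold change was 4.74 ± 0.45 (edgeR adjusted p = 4.18e-05). Few cells carried it, 162 of 1672 in EAE 1 and 50 of 1163 in EAE 2, and 20 and 8 cells held at least 50% of its UMIs. With all barcodes as deposited Cxcl5 stood at 32.8 and 23.4 CPM in Healthy 1 and 2, and the call was lost (1.55, adjusted p = 0.178).

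Cxcl9, an interferon-gamma-induced attractant of T cells, stood at 40.4, 24.3 and 0.67 CPM in Healthy 1 to 3 (39, 30 and 1 UMIs) and at 374 and 160 CPM in EAE 1 and EAE 2 (3252 and 1115 UMIs). Group means were 267 ± 151 CPM (SD, n = 2) in EAE and 21.8 ± 20.003 CPM (SD, n = 3) in Healthy, with no overlap. The log2 fold change was 4.15 ± 0.69 (edgeR adjusted p = 0.0244). Its sign held in each batch, at 3.46 ± 0.39 in the first and 7.74 ± 0.80 in the second, where Healthy 3 gave 1 UMI. The call was lost without Healthy 1 (4.57, adjusted p = 0.134), without Healthy 2 (4.12, 0.241), with shared barcodes left out (3.47, 0.413), with clusters in place of gates (3.78, 0.207), without a batch term (3.57, 0.165) and as deposited (2.15, 0.478), where Cxcl9 stood at 192 and 197 CPM in Healthy 1 and 2. In each of those the estimate was still above 2 on the log2 scale.

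Cxcl10, the related ligand that interferons of more than 1 type induce, stood at 69.5, 16.2 and 36.3 CPM in Healthy 1 to 3 and at 390 and 215 CPM in EAE 1 and EAE 2. EAE libraries averaged 302 ± 124 CPM (SD, n = 2) and Healthy libraries 40.7 ± 26.9 CPM (SD, n = 3), again with no overlap. The log2 fold change was 2.86 ± 0.56 (edgeR adjusted p = 0.0304), and each batch alone gave a positive value, 3.14 ± 0.39 for EAE 1 and 2.50 ± 0.49 for EAE 2 against the Healthy libraries of its batch. The call was lost without Healthy 1 (3.36, adjusted p = 0.142). Cxcl10 reads can be hard to tell from those of Art3, a gene on the other strand that spans it, where counting ignores strand, which the sources used here do not state. Art3 itself stood at 0.672 to 4.06 CPM in fibroblast-gated cells.

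The homeostatic chemokine Cxcl12, a retention signal for stem cells and lymphocytes, varied little across libraries. It stood at 563, 588 and 556 CPM in Healthy 1 to 3 and at 691 and 532 CPM in EAE 1 and EAE 2. The EAE libraries lay on either side of the Healthy range, and the log2 fold change was 0.02 ± 0.18 (edgeR adjusted p = 0.946).

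Cxcl13, the B cell attractant of lymphoid follicles, gave a level in Healthy 1 that came from a single cell. Its UMIs numbered 231, 0 and 0 in Healthy 1 to 3 (240, 0 and 0 CPM) and 511 and 136 in EAE 1 and EAE 2 (58.8 and 19.5 CPM). Of the 231 UMIs in Healthy 1, 230 lay in 1 barcode of 3499 UMIs, which clustered with cells led by Igfbp3 and Ptgds. In EAE 76 cells of EAE 1 and 22 of EAE 2 had a UMI, and 4 and 3 cells held at least 50% of the UMIs. The log2 fold change over all cells was -0.04 ± 2.86 (edgeR adjusted p = 0.996). Without that 1 barcode, a choice made after seeing the data, it was 7.04 ± 0.59 (adjusted p = 2.06e-05). Cxcl13 then had 1, 0 and 0 UMIs in Healthy 1 to 3 and passed the filter on low counts only through the EAE libraries. It could only be called higher, so that call is no support.

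Cxcl14, a chemokine of epithelia and stroma, stood at 189, 123 and 79.3 CPM in Healthy 1 to 3 and at 102 and 70.6 CPM in EAE 1 and EAE 2. The groups overlapped, and the fold change on the log2 scale was -0.52 ± 0.23 (edgeR adjusted p = 0.139). Cxcl16, which is made as a membrane protein and shed by Adam10 and Adam17, stood at 356, 308 and 571 CPM in Healthy and at 310 and 221 CPM in EAE. In these plain CPM EAE 1 lay just above the lowest Healthy library, while on the scaled levels of the test both EAE libraries (301 and 213 CPM) lay below all Healthy libraries (330 to 578 CPM). The log2 fold change was -0.72 ± 0.27 (adjusted p = 0.0903). By batch it was -1.43 ± 0.44 for EAE 2 against Healthy 3 (edgeR adjusted p = 0.023) and -0.18 ± 0.39 for EAE 1. The first of these sets 1 library against 1, with a spread taken from Healthy 1 and Healthy 2. Zmynd15, which overlaps the start of Cxcl16 on the other strand, stood at 7.47 to 27.6 CPM.

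**Figure D2:**
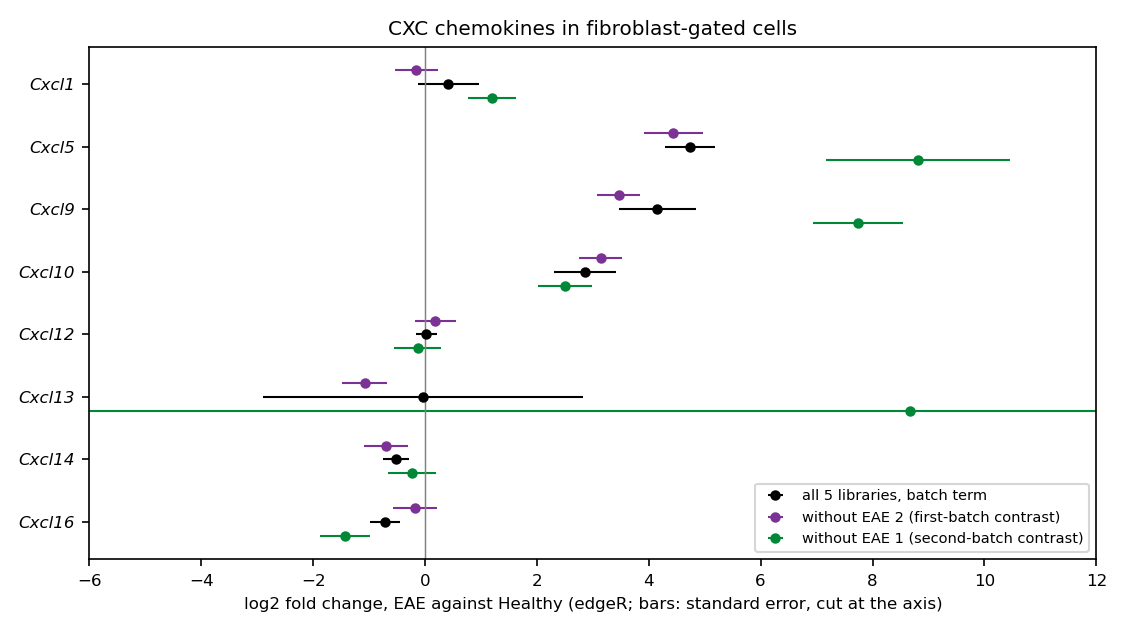
Log2 fold change of each CXC chemokine in fibroblast-gated cells, EAE against Healthy (edgeR), over all 5 libraries with a batch term and without EAE 2 or EAE 1, which leaves the contrast within the first or the second batch. Bars are standard errors. Cxcl5, Cxcl9 and Cxcl10 lie right of 0 in both batches, Cxcl1 changes side between them, and the bar of Cxcl13 without EAE 1 runs past the axis.

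Other markers moved with state in these cells. Summed leukocyte markers in fibroblast-gated cells stood at 7.26 to 12.2 CPM in Healthy and at 47.7 and 28.0 CPM in EAE 1 and EAE 2, with 5 to 9 of 31 markers detected in Healthy libraries and 25 and 24 in EAE. The fibroblast-gated sums held 964441 to 1487539 UMIs in Healthy and 8694368 and 6957545 in EAE, so the numbers of markers detected cannot be compared. Flt3, Cd209a and Gzma were at 0 in all 5 libraries. Summed mural markers (8 on the list) stood at 45.4 to 66.4 CPM in Healthy and at 184 and 120 CPM in EAE. Endothelial markers (7) stood at 78.7 to 115 CPM in Healthy and at 261 and 268 CPM in EAE, and arachnoid barrier markers (6) at 231 to 335 CPM and at 603 and 399 CPM. Tenocyte markers (4) went the other way, at 377 to 516 CPM in Healthy and 65.8 and 47.6 CPM in EAE. Osteoblast markers stood apart in Healthy 2, at 4331 CPM against 1.34 to 164 CPM in the other libraries. The part of these markers in the values of the 8 chemokines was not tested.

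Sequence just before the start of the genes is shown for the interferon-type pair that rose together, for Cxcl1, and for Cxcl12, which varied little. Each line gives the 250 bases before the RefSeq start, 5′ to 3′ on the strand of the gene, in GRCm38.p6: chr5:92348890-92349139 (minus strand), chr5:92328080-92328329 (minus), chr5:90890995-90891244 (plus) and chr6:117168285-117168534 (plus). Capitals mark matches on either strand to GGG, any 3 bases and TTCC (an NF-kappaB-type motif), TTC, any 3 bases and GAA (a GAS-type motif, found near interferon gamma targets) or GAAA, any 2 bases and GAAA (an ISRE-type motif bound by interferon regulatory factors).
Cxcl10: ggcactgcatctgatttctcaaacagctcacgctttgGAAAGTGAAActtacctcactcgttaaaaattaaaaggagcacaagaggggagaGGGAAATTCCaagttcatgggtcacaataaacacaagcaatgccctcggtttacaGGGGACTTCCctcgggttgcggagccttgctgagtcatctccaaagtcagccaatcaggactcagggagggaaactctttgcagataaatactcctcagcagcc
Cxcl9: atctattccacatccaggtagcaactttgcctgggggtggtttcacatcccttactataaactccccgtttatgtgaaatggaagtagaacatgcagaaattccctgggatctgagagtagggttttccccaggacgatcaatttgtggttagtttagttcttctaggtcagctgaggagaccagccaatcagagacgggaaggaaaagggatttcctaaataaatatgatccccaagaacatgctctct
Cxcl1: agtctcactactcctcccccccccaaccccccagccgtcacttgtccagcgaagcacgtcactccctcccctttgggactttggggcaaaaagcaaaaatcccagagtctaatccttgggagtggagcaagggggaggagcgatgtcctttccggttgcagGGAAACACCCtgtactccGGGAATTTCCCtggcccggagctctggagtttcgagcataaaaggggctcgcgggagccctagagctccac
Cxcl12: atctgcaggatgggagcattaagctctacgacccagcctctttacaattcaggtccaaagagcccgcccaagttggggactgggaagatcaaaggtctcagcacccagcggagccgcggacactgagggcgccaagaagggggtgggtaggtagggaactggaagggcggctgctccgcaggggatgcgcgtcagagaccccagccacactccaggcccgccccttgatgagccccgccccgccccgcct
The Cxcl10 window held 2 NF-kappaB-type matches and 1 ISRE-type match. In the Cxcl1 window lay 3 NF-kappaB-type matches, of which 2 overlap on opposite strands. Of 32851 promoter windows of the same length, 4.65% held the NF-kappaB-type motif, 7.02% the GAS-type motif and 2.98% the ISRE-type motif. The windows of Cxcl9, Cxcl12 and Cxcl13 held none of the 3 motifs, which says only that these letters are not there. In Cxcl14 lay 1 site that reads as GAS-type on both strands and 1 ISRE-type match. Entries for 6 of the 8 genes were found by symbol, and none for Cxcl5 and Cxcl16.

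Cxcl5, Cxcl1, Cxcl9, Cxcl10 and Cxcl13 lie on mouse chromosome 5, and their genes are all protein-coding in an annotation of GRCm38 (mm10). Cxcl5 (chr5:90759360-90761624) and Cxcl1 (chr5:90891241-90893115) lie near each other on the plus strand, Cxcl9 (chr5:92321347-92328079) and Cxcl10 (chr5:92346638-92348889) side by side on the minus strand, and Cxcl13 at chr5:95956951-95961068 on the plus strand. Cxcl12 lies at chr6:117168535-117181367, Cxcl16 at chr11:70453983-70459984 and Cxcl14 at chr13:56288643-56296551.

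Shares of fibroblast-gated cells with a UMI were compared after thinning each cell to 1000 UMIs, since depth differed between libraries. This left out 244, 18 and 9 cells of Healthy 1 to 3 and 0 and 45 of EAE 1 and EAE 2. Cxcl10 was found in 2.78%, 0.833% and 2.63% of Healthy cells and in 13.4% and 11.4% of EAE cells. Cxcl9 was found in 0.758%, 0.833% and 0% of Healthy cells and in 10.8% and 4.204% of EAE cells. For Cxcl5 the shares were 0.253%, 0% and 0% against 4.19% and 0.984%. These 3 genes and Cxcl13 (0.253%, 0% and 0% against 2.33% and 0.716%) had no overlap between states. Thinned shares were not computed for all genes, so how common such a pattern is among them is not known. Each gave an exact two-sided permutation p of 0.1, the smallest that 3 against 2 libraries allow, so none could pass 0.05. Unthinned, Cxcl10 was in 4.69%, 3.17% and 7.41% of Healthy cells and in 30.9% and 32.2% of EAE cells.

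For the other 4 genes the thinned shares overlapped. Cxcl1 was found in 31.1%, 15.8% and 17.0% of Healthy cells and in 27.7% and 32.0% of EAE cells (exact permutation p = 0.3), although the unthinned shares, 30.4% to 33.3% against 60.5% and 63.6%, did not overlap. Cxcl12 was found in 35.3% to 40.1% of Healthy cells and in 42.7% and 36.2% of EAE cells. As a background, leukocyte-gated cells, which should lack Cxcl12, had a UMI of it in 0 of 122 cells of EAE 1 (which allows a share of up to 2.46%) and in 1 of 24 of EAE 2, at median depths of 3071 and 2366.5 UMIs against 4658.5 and 5166 in fibroblast-gated cells. Cxcl16 was found in 23.7%, 24.2% and 38.3% against 25.1% and 18.4%, and Cxcl14 in 2.63% to 9.09% against 8.31% and 5.72%.

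**Figure D3:**
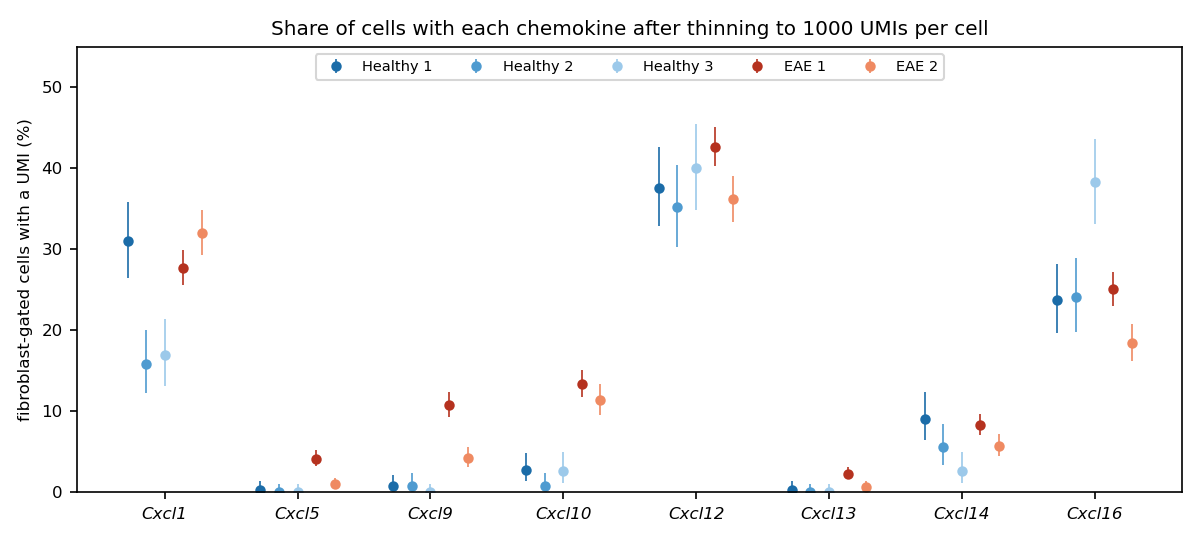
Percentage of fibroblast-gated cells with at least 1 UMI of each CXC chemokine after thinning every cell to 1000 UMIs, 1 point per library with its exact Clopper-Pearson 95% interval (counting error only). The EAE libraries lie above all Healthy libraries for Cxcl5, Cxcl9, Cxcl10 and Cxcl13 and overlap them for Cxcl1, Cxcl12, Cxcl14 and Cxcl16. How many of all genes show either pattern was not computed.

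Cxcl10 was found in a larger share of the cells with Cxcl9 than of those without it, a description of cells that share their libraries. In thinned EAE 1 cells Cxcl10 was found in 32.2% of 180 cells with Cxcl9 and in 11.1% of 1492 cells without it. In EAE 2 the shares were 34.0% of 47 cells and 10.4% of 1071. Cxcl12 went the other way, in 26.7% of Cxcl9-bearing cells and 44.6% of the rest in EAE 1, and in 27.7% and 36.6% in EAE 2. The UMIs of Cxcl9 and Cxcl10 were held by few cells: 34 and 10 cells of EAE 1 and EAE 2 held at least 50% of those of Cxcl9, and 41 and 32 cells those of Cxcl10.

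Clusters made without the 8 chemokines showed where in the fibroblast-gated cells these lay, and only such cells are counted in them here. Cells led by Tnc, Timp1 and Cthrc1, genes of matrix remodelling, held 2499 of the 3252 Cxcl9 UMIs of EAE 1 and 870 of the 1115 of EAE 2. Their Cxcl9 level was 1029 CPM in EAE 1 and 435 CPM in EAE 2, and their Cxcl10 level 811 and 368 CPM. No other fibroblast-gated cluster with 20 or more cells in EAE 1 exceeded 190 CPM of Cxcl9 there. The same cells had low Cxcl12, at 334 and 157 CPM. Over all kept cells this cluster had 335 cells in EAE 1 and 213 in EAE 2, but 5, 1 and 0 in Healthy 1 to 3. Its levels thus have next to no Healthy counterpart, and its part in the fold changes between states was not tested.

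A cluster led by the acute-phase genes Saa3, Lcn2 and Saa1 was high in the neutrophil attractants. Its Cxcl5 level was 234 CPM in EAE 1 and 115 CPM in EAE 2, and its Cxcl1 level 987 and 886 CPM. Cxcl12 was also high in it, at 1504 and 1186 CPM. This cluster had 238 cells in EAE 1, 52 in EAE 2 and 1 in all Healthy libraries together, so its levels have no Healthy counterpart. Cxcl13 was at 62.2 and 95.2 CPM in it, while cells led by Igfbp3 and Ptgds had 114 CPM in EAE 1 and 0 UMIs in EAE 2.

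Cxcl14 in Healthy lay mainly in a cluster led by Clec3b, Fmod and Itih5, which was given no cell type name. It held 160 of 182, 102 of 152 and 113 of 118 Cxcl14 UMIs of Healthy 1 to 3, at 416, 543 and 232 CPM. In EAE the same cluster, with 45 and 46 cells, had Cxcl14 at 49.8 CPM in EAE 1 and 0 UMIs in EAE 2, and Cxcl14 lay in other clusters instead. The Cxcl12 level of this cluster was 863, 1441 and 980 CPM in Healthy and 1394 and 1104 CPM in EAE. These are descriptions with no test, since clusters were drawn from the same cells.

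**Figure D4:**
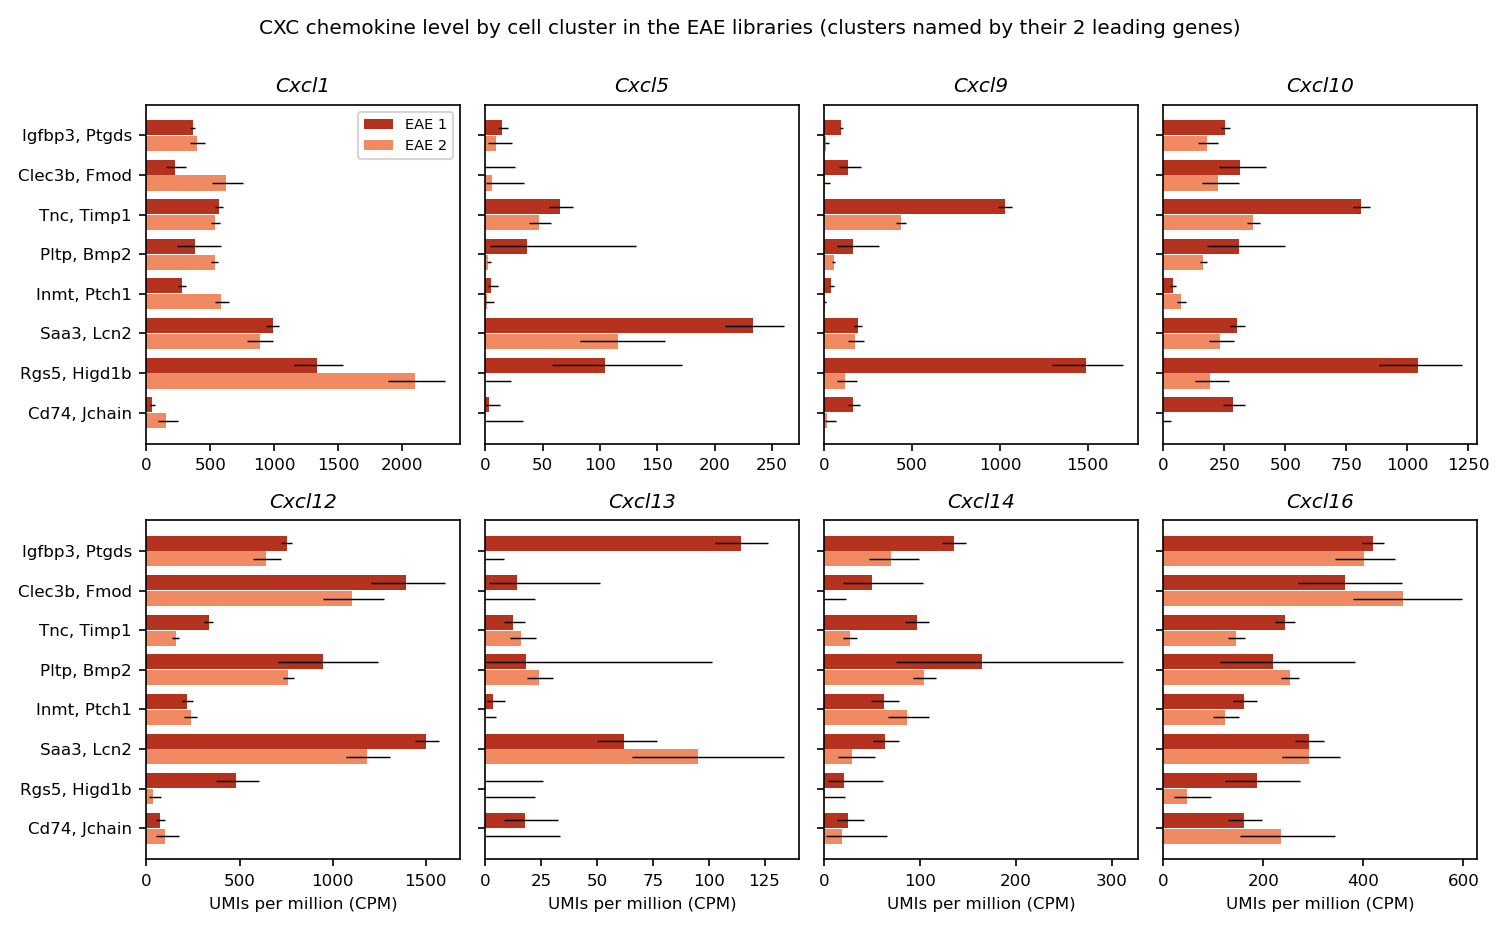
Level of each CXC chemokine (CPM) in 8 cell clusters of EAE 1 and EAE 2, named by their 2 leading genes (clusters were made without the chemokines). Bars start at 0 and error bars are exact Poisson 95% intervals. Cxcl9 and Cxcl10 are high in the clusters led by Tnc and, in EAE 1, by Rgs5, while Cxcl5 and Cxcl12 peak in the cluster led by Saa3.

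The second comparison asked how mural-gated cells (pericytes and smooth muscle cells of vessels) differ from fibroblast-gated cells over all 5 libraries. Cxcl12, Cxcl14 and Cxcl16 were lower in mural-gated cells and none was higher (edgeR, 6 of 8 tested; of all 6325 genes 12.4% were lower and 9.28% higher). Cxcl12 stood at 29.6, 273 and 62.6 CPM in mural-gated cells of Healthy 1 to 3 and at 104 and 13.1 CPM in EAE 1 and EAE 2. Each of these lay below the fibroblast-gated level of its library, and the log2 difference was -2.96 ± 0.44 (adjusted p = 0.000185). Cxcl16 had 0 UMIs in mural-gated cells of the 3 Healthy libraries, and 2 and 4 UMIs in EAE 1 and EAE 2 (20.9 and 26.2 CPM). Fibroblast-gated cells of Healthy thus held at least 29.2-fold more Cxcl16 (floor of 3 counts over the group), with an edgeR adjusted p of 6.94e-08 over both states. Cxcl14 had 0 UMIs in all mural-gated cells, at least 8.39-fold less than fibroblast-gated cells in Healthy and 7.27-fold in EAE (edgeR adjusted p = 9.43e-07). Cxcl14 and Cxcl16 passed the filter on low counts through the fibroblast-gated sums alone. They could only be called lower, so their calls are no support.

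Cxcl1 had a higher mean level in mural-gated than in fibroblast-gated cells in both states. It stood at 88.9, 382 and 1102 CPM in Healthy 1 to 3 and at 449 and 2054 CPM in EAE 1 and EAE 2 (3, 35, 88, 43 and 313 UMIs). In 3 of 5 libraries, Healthy 2, Healthy 3 and EAE 2, this was above the fibroblast-gated level. The log2 difference of 0.45 ± 0.77 missed the threshold (edgeR adjusted p = 0.775). With cells past both the fibroblast and mural gates counted as mural, a choice made after seeing the data, it was 1.19 (adjusted p = 0.0177). Most Cxcl1 lay with Rgs5, a pericyte marker: cells with more pericyte than smooth muscle marker UMIs had 205, 770 and 2207 CPM in Healthy and 920 and 2118 CPM in EAE, and those on the Myh11 side 42.4, 0 and 95.8 CPM in Healthy and 174 CPM in EAE 1.

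Cxcl9 in mural-gated cells was at 0 UMIs in all 3 Healthy libraries (limits of 88.9, 32.7 and 37.6 CPM) and at 407 and 91.9 CPM in EAE 1 and EAE 2. Cxcl10 was at 0, 32.7 and 62.6 CPM in Healthy and at 887 and 157 CPM in EAE. EAE against Healthy within mural-gated cells could be tested for Cxcl1 and Cxcl10 alone, over 4 libraries with at least 20 cells and 1 residual degree of freedom. Cxcl10 passed the filter on low counts only through the EAE libraries. It could only be called higher, so a call of it is no support. Cxcl10 passed the threshold, at 5.17 ± 0.82 on the log2 scale (edgeR adjusted p = 6.06e-07; of 1609 genes 0.684% were called, 0.497% higher and 0.186% lower). This fold change is that of 1 library, EAE 1, against Healthy 1 and 2, since Healthy 3, with 18 cells, was left out. On simulated data the same fit called a larger share of unchanged genes than it called here among all genes, so this call is weak. In EAE 1 the 85 UMIs of Cxcl10 came from 3 cells, and in EAE 2 the 24 UMIs from 10 cells. None of 31 leukocyte markers had a UMI in mural-gated cells of either EAE library. Summed fibroblast markers did, at 1785 and 2362 CPM in EAE 1 and EAE 2, against 563, 884 and 1403 CPM in Healthy 1 to 3. Their part in the Cxcl10 level was not tested. With Healthy 3 added the log2 fold change of Cxcl10 was 3.55 (edgeR adjusted p = 0.0472), and DESeq2 did not call it (5.37, adjusted p = 0.453). Cxcl1 was not called (0.72 ± 0.52, adjusted p = 0.999). Art3, on the other strand of Cxcl10, stood at 190 CPM in mural-gated cells of EAE 2 and at 37.6 CPM or less in the other libraries, so the Cxcl10 level there could hold reads of Art3 if counting ignored strand.

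Whether EAE moved the chemokines differently in mural-gated and fibroblast-gated cells was tested as an interaction, added after seeing the data. None of the 8 was called in edgeR, where 1.00% of 8459 genes were, 0.461% higher and 0.544% lower. Cxcl9 and Cxcl16 had an unadjusted p under 0.05 there, and in DESeq2, which also called none, 2 chemokines did (Cxcl5 and Cxcl16). On simulated data this design missed most of the differences put in, so a difference could be missed here.

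The third comparison set leukocyte-gated against fibroblast-gated cells of the EAE libraries. Cxcl1, Cxcl9, Cxcl12 and Cxcl14 were lower in leukocyte-gated cells and none was higher (edgeR, 6 of 8 tested; of all 5374 genes 21.8% were lower and 11.7% higher). Cxcl1 had 2 UMIs in EAE 1 and 3 in EAE 2 (4.54 and 38.6 CPM), against 512 and 554 CPM in fibroblast-gated cells. The log2 difference was -5.47 ± 0.73 (adjusted p = 3.68e-05). Cxcl12 had 0 and 1 UMIs (adjusted p = 4e-05). Cxcl14 had 0 UMIs in both, so fibroblast-gated cells held at least 15.2-fold more (floor of 3 counts over the group; edgeR adjusted p = 0.000175, DESeq2 0.373). Cxcl5, not tested for low counts, also had 0 UMIs, at least 7.77-fold less. Cxcl1, Cxcl12 and Cxcl14, with 5, 1 and 0 UMIs in leukocyte-gated cells of EAE, passed the filter on low counts through other classes. They could only be called lower, so their calls are no support. The members with the most UMIs in leukocyte-gated cells were Cxcl9, Cxcl10 and Cxcl16.

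Cxcl9 stood at 118 CPM in leukocyte-gated cells of EAE 1 and at 25.8 CPM in EAE 2, below the fibroblast-gated level in both, and the log2 difference was -1.997 ± 0.49 (edgeR adjusted p = 0.0051). With shared barcodes left out of every library this was -0.80 and not called (adjusted p = 0.324). Cxcl10 stood at 279 CPM in EAE 1 and at 0 of 77626 UMIs in EAE 2 (a limit of 38.6 CPM), and its difference of -1.60 ± 0.70 was not called (adjusted p = 0.104). Cxcl16 stood at 132 and 167 CPM, with a difference of -0.89 ± 0.42 (adjusted p = 0.121). Within the leukocytes most of these UMIs lay in myeloid-gated cells: in EAE 1 the 75 myeloid-gated cells had Cxcl9 at 183, Cxcl10 at 343 and Cxcl16 at 206 CPM, while the 23 lymphoid-gated cells held 0, 1 and 0 UMIs. EAE 2 gave only 5 myeloid-gated cells. Melanocyte-gated cells of EAE 1 held Cxcl10 at 122 CPM, of which 52 of 85 UMIs lay in 1 cell, and no UMI of Cxcl5, Cxcl12, Cxcl13, Cxcl14 or Cxcl16.

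The receptors of these ligands were measured beside them. Of 10 CXC and atypical chemokine receptors, 2 passed the filter on low counts in fibroblast-gated cells. Ackr4, a scavenger of other chemokines, was called (1.97 ± 0.52, edgeR adjusted p = 0.0215) at 1.04, 8.12 and 1.34 CPM in Healthy 1 to 3 and at 18.2 and 9.05 CPM in EAE 1 and EAE 2. Ackr3, the scavenger of Cxcl12, was not (0.80 ± 0.29, adjusted p = 0.0739). In leukocyte-gated cells of EAE 1 and EAE 2 the receptor of Cxcl16, Cxcr6, had 38 and 24 UMIs, that of Cxcl9 and Cxcl10, Cxcr3, 22 and 1, and that of Cxcl12, Cxcr4, 34 and 3. Cxcr5, the receptor of Cxcl13, had 0 UMIs in both, and Cxcr2, that of Cxcl1 and Cxcl5, 2 and 1. Sorting for the reporter sets which leukocytes are present, so these counts do not describe the leukocytes of the cord.

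Other genes of the pathways were taken from lists. Of 23 tested genes of interferon gamma signalling, 13 rose, 2 fell and 8 were not called in fibroblast-gated cells, where 10.1% of all genes rose and 10.6% fell. Iigp1, a GTPase of cell defence, stood at 33.2, 25.2 and 12.8 CPM in Healthy and at 394 and 145 CPM in EAE (log2 fold change 3.57 ± 0.22). Irf8, a transcription factor of the interferon regulatory family, also rose (3.48 ± 0.40). The fallers were Socs3, a brake on cytokine signalling (-1.66 ± 0.32), and the receptor chain Ifngr1 (-0.73 ± 0.23), with edgeR adjusted p-values of 0.00695 and 0.0437. The list's median log2 fold change was 1.07.

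Of 20 genes of NF-kappaB signalling 5 rose, none fell and 15 were not called. The share called in either direction was near the 20.8% of all genes, of which 10.1% rose and 10.6% fell. The list's median log2 fold change was 0.64. Il1r1, the receptor of interleukin-1, stood at 27.0, 26.8 and 24.2 CPM in Healthy and at 114 and 115 CPM in EAE (2.05 ± 0.22, adjusted p = 7.63e-05). Nfkbie (2.15 ± 0.37) and Bcl3 (1.36 ± 0.30), inhibitor-type proteins of the pathway, rose too. Of 7 tested genes of chemokine processing 4 rose, among them the sheddases of Cxcl16, Adam10 (1.20 ± 0.23) and Adam17 (0.83 ± 0.25), and the protease Mmp14 (0.95 ± 0.20). Dpp4, which clips Cxcl9, Cxcl10 and Cxcl12, was not called (-1.17 ± 0.49, adjusted p = 0.121). Of 9 tested genes of lymphoid-type stroma 4 rose, Ccl19 among them (1.09 ± 0.30, adjusted p = 0.0331), and Il33 fell (-1.55 ± 0.22). Of the other CXC ligands only Cxcl2, a further Cxcr2 ligand, passed the filter, and its 2.83 ± 1.75 was not called (adjusted p = 0.423).

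The genes whose levels went most like each chemokine were sought over 11 sums of a library and class with at least 20 cells, among 6140 genes, by Pearson's r of log2(CPM + 5), as a description with no test. The sums share libraries and differ in class and depth, so high values are easily reached. For Cxcl9 the first gene was Serpina3g (r = 0.92), for Cxcl10 Txnl1 (0.94) with Gbp4 in the third place (0.89), and for Cxcl5 Aqp1 (0.95) with Timp1 in the third place (0.90). For Cxcl1 it was Vasn (0.98), for Cxcl12 Igfbp4 (0.96), for Cxcl14 Kcnk2 (0.99), for Cxcl16 Spp1 (0.98) and for Cxcl13 Saa2 (0.85).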

How the data were processed

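The authors deposited 5 tables of raw UMI counts per gene and barcode, 1 per library. Per the labels' protocols, cords were dissociated, GFP+ cells sorted and 10x Genomics v2 libraries made. The submitters' processing notes name Cell Ranger 2.1.1, Seurat 3 and the build mm10. For cell calling, annotation and strand, the settings were not given in the sources used here. Healthy 3 and EAE 2, whose labels carry a lane, were taken as the second batch. The title of EAE 1 carries no number.

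A barcode in more than 1 of Healthy 1, Healthy 2 and EAE 1 was kept where its UMI total was highest. Cells needed 200 genes and at most 10% mitochondrial UMIs. A class needed at least 3 UMIs of at least 2 of its markers and 0.2% of the cell's UMIs, and the class with most marker UMIs was taken. Cells whose runner-up class had over 50% of the top class's marker UMIs were left out as mixed, which is also all that was done about doublets. Of 4204 fibroblast-gated cells 40 lay within 2 times of the gate, as did 28 of 127 mural-gated and 16 of 148 leukocyte-gated cells. The gate was set after the data were seen.

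UMIs were summed per library and class and tested with edgeR 4.0.16 (quasi-likelihood, TMM, its filter on low counts, terms for batch and state, or library and class) with Benjamini-Hochberg adjustment over all genes tested and a threshold of 0.05. Sums needed 20 cells (10 in the comparisons of classes). Standard errors were derived from each log2 estimate and its F statistic. Printed CPM are over plain sums. DESeq2 1.42.0 was an alternative, as were other gates, filters and scalings, leaving out each library, and clusters (scanpy 1.11.5, leidenalg 0.10.2, 2000 variable genes without the chemokines, 30 components, 15 neighbours, resolution 1). Shares used exact permutation tests over 10 splits. The intervals are 95% and cover counting error only. The tests were tried on simulated data. Named pathway genes are up to 3 rises and 3 falls of largest size per list, past the threshold and with a mean of at least 10 CPM, and the receptors, Dpp4, Cxcl2, Art3 and Zmynd15 were added for their tie to the chemokines. A gene that this rule names is not reported here. For likeness, genes needed a mean of 20 CPM and chemokines 50 UMIs. The members and lists were chosen with earlier results of these data known. Cxcl11 and the T cell markers Trac and Trbc2 were not analysed here.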

Additional observations from a re-analysis of the deposited data

How the results depend on the processing

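In fibroblast-gated cells Cxcl10 was called under 14 of 16 alternatives, Cxcl5 under 15 and Cxcl9 under 10, with log2 fold changes of 1.57 to 3.36, 1.55 to 8.81 and 2.15 to 7.74, all higher in EAE. Here too the calls of Cxcl5 are no support. In the main fit it passed the filter on low counts only through the EAE libraries and could only be called higher. Over all genes, 634 of 10292 were higher as deposited, 1125 of 18047 lower without a filter on low counts and 1178 of 8413 lower with clusters. Of the 8 chemokines, the number called higher was 1 as deposited. The number called lower was 1 without a filter on low counts and 1 with clusters in place of gates, both times Cxcl16 (log2 fold changes of -0.63 and -0.84). Without EAE 1, which leaves 1 EAE library, Cxcl16 was -1.43. Leaving out Healthy 1, Healthy 2 or Healthy 3 gave 3, 2 and 3 of the 8 called higher and 0 lower. Over all genes 1761 of 11846, 972 of 11777 and 656 of 11647 were higher in those fits, and 1484, 850 and 580 lower. With clusters, whose fibroblast class held only 110 cells of Healthy 1 and left out the cluster rich in Cxcl14, Cxcl9 (3.78, adjusted p = 0.207) and Cxcl10 (2.76, 0.212) were not called, while Cxcl12 (0.70, 0.0136), Cxcl13 and Cxcl14 were. The count over all genes, 2059, ran from 752 without EAE 1 to 3245 without Healthy 1, and was 816 with shared barcodes left out, 1328 with DESeq2, 1236 without Healthy 3 and 1120 without EAE 2.

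The direction turned for others of the 8. Leaving out a library took Cxcl1 from -0.19 (without Healthy 3) to 1.19 and Cxcl12 from -0.13 (without EAE 1) to 0.18, Cxcl12 was -0.0019 without a batch term, and Cxcl14 was 1.64 with clusters (adjusted p = 0.0351). Cxcl13 was 0.068 as deposited, 0.059 with library totals, 3.35 with DESeq2, 0.037 without a filter, 8.92 with clusters and 7.04 without the 1 barcode, and leaving out a library took it from -1.10 (without Healthy 3) to 10.40 (without Healthy 1), with 8.67 without EAE 1.

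In mural-gated cells the number higher in EAE was 0 with DESeq2 (1 of 2 tested had an unadjusted p under 0.05), 0 without a batch term (2 unadjusted) and 2 without a filter. The fit without EAE 2 leaves 1 EAE library, so its count is not given. Cxcl10 was also not called with clusters (2.41, adjusted p = 0.0889) or with mixed cells as mural (3.36, 0.0511), and its adjusted p ran from 8.53e-08 to 0.453. Over all genes, 6 of 11732 were higher in mural-gated cells of EAE without a filter, and 0 of 1609 were called with DESeq2 or without a batch term. The fit could not be made without Healthy 1, Healthy 2 or EAE 1, with shared barcodes left out, with the stricter gate or with at least 1000 UMIs, for lack of libraries with enough cells or of residual degrees of freedom. For mural-gated against fibroblast-gated cells the number lower was 5 without a filter (1318 of 18122 over all genes) and 1 with clusters (506 of 3444). The number higher was 1 with clusters (473 of 3444) and 1 with mixed cells as mural (639 of 6378), both times Cxcl1. There Cxcl1 was -0.063 without Healthy 3 and up to 0.98 without Healthy 1, Cxcl9 0.062 with mixed cells as mural, and Cxcl10 -0.069 as deposited, -0.89 with shared barcodes left out, -0.28 without EAE 1 and up to 0.64 without EAE 2. For leukocyte-gated against fibroblast-gated cells 7 were lower without a filter (1744 of 17954 over all genes), and leaving out a library left no residual degrees of freedom. The interaction called 2 with clusters and 2 with mixed cells as mural, where 259 of 5140 and 175 of 8356 genes were called. The number highest in fibroblast-gated cells was 5 to 7 in EAE and 6 to 7 in Healthy under the alternatives.

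The difference in thinned shares turned sign for Cxcl12 (-1.72 points at 500 UMIs, -1.43 without EAE 1 to 5.05 without EAE 2), Cxcl14 (-0.381 at 500 UMIs, -0.304 without Healthy 3 to 2.93 without Healthy 1) and Cxcl16 (11.2 not thinned). Where no cause is named, the cause was not tested. No paired analysis was possible because the labels of the groups share only 1 replicate number. Depth limits the mural-gated and leukocyte-gated sums most, where 1 UMI is worth 6.56 to 29.6 CPM in mural-gated cells.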

Other observations

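Cxcl2, a Cxcr2 ligand beside Cxcl1 and Cxcl5, was also found in myeloid-gated cells. In EAE it stood at 106 and 169 CPM in fibroblast-gated cells of EAE 1 and EAE 2, at 94.0 and 538 CPM in mural-gated cells, and at 515 CPM in the 75 myeloid-gated cells of EAE 1, where Cxcl1 gave 1 UMI. In Healthy fibroblast-gated cells Cxcl2 stood at 64.3, 3.25 and 2.69 CPM, so Healthy 1 was high for it as it was for Cxcl1.

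Cells past both the fibroblast and the mural gate, which the comparisons left out, had high Cxcl1 in every library, at 3631, 2045 and 2930 CPM in Healthy 1 to 3 and at 1426 and 1844 CPM in EAE 1 and EAE 2, from 3, 6, 2, 21 and 4 cells. In EAE 1 these cells also held Cxcl9 at 1609 CPM and Cxcl10 at 746 CPM.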
